A study of Mus musculus with 8 samples.

Results

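Genes of the sperm flagellum and its axoneme were followed in direct RNA sequencing of whole mouse testes, in which each read is 1 poly(A) RNA with an estimate of its tail length. The members were all transcripts whose gene symbol began with Cfap, Ccdc, Dnah, Dnai, Dnal, Dynl, Drc, Rsph, Tekt, Akap, Spag or Ropn, or was Odf2, Odf3, Odf3b or Odf4. This rule on names used no measured value and gave 83 of the 2783 transcripts in the table, from 65 of 2243 gene symbols. It also took in light chains of cytoplasmic dynein and coiled-coil proteins that work outside the flagellum, and no symbol starting with Dnah, Dnai or Drc was among the members. The testes came from adult C57BL/6 mice that carried wild-type Tent5c (Tent5c wt/wt, wt) or a knock-in of catalytically dead Tent5c on both alleles in all cells (Tent5c dcat/dcat, dcat). TENT5C is a cytoplasmic poly(A) polymerase. Each genotype received 1 injection of vehicle or of busulfan at 20 mg/kg, a DNA-damaging drug to which proliferating germ cells are sensitive, and testes were taken 4 weeks later. There were 2 mice per group and 8 libraries in all, and p-values measure the spread between so few mice.

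The motile axoneme is a ring of doublet microtubules around a central pair. Dynein arms on the doublets slide neighbouring doublets past each other, the nexin-dynein regulatory complex and the radial spokes turn this sliding into a regulated beat, and microtubule inner proteins and tektins stabilise the doublets from within. In sperm the axoneme is wrapped in outer dense fibres and a fibrous sheath, and the genes for these parts are transcribed in spermatocytes and round spermatids, stored as mRNA and translated as spermatids elongate.

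Total reads ran from 29574 to 129074 per library, and the vehicle-treated dcat group held both the shallowest and the deepest library. Member reads numbered 2107 and 3117 in the vehicle-treated wt libraries (replicates 1 and 2), 1060 and 5652 in vehicle-treated dcat, 344 and 644 in busulfan-treated wt, and 465 and 1284 in busulfan-treated dcat. A transcript entered the deposited table when some group had 10 or more reads of it in each of its libraries, which all 83 members met. Of these, 63 met it in vehicle groups but in no busulfan group, 7 in busulfan groups but in no vehicle group, and 13 in groups of both treatments, so each member listed through 1 treatment alone was high in the group that let it in, on the vehicle side and on the busulfan side alike. Marker genes placed the libraries: 12 transcripts of 8 late spermatid genes summed to between 89301 and 110829 CPM (read counts scaled to a common library total) in the 4 vehicle libraries, 7585 and 9859 in busulfan-treated wt, and 19664 and 35274 in busulfan-treated dcat. Leydig markers (7 of 8 genes found, Lhcgr missing) summed to between 3603 and 6594 CPM after vehicle, 40529 and 45709 in busulfan-treated wt, and 25227 and 20931 in busulfan-treated dcat. This sum includes Insl3, which the paper reports as reduced in busulfan-treated dcat testes. Of 10 Leydig transcripts, 1 was called lower in dcat than in wt after busulfan, against 0.431% of all transcripts (edgeR). Their median log2 fold change was -0.106. Of 5 marker genes of multiciliated epithelium, which also builds motile axonemes, Foxj1 among them, 0 had entered the table. In whole testis, fewer germ cells and less RNA per germ cell cannot be told apart.

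The members together made up a few percent of testis mRNA reads, and most of that share was gone after busulfan. Members took 4.15% and 4.32% of reads in the vehicle-treated wt libraries and 3.58% and 4.38% in vehicle-treated dcat. After busulfan they took 0.521% (95% Wilson interval 0.469 to 0.579) and 0.558% (0.517 to 0.603) in wt, and 0.756% (0.691 to 0.828) and 1.33% (1.258 to 1.402) in dcat. Both busulfan-treated dcat libraries lay above both busulfan-treated wt libraries beyond counting error, which is all that these intervals cover, and all 4 lay below every vehicle library. A large part of what remained was not specific to the flagellum. Dynein light chains shared with cytoplasmic dynein held a mean of 0.527% of reads in vehicle-treated wt, 0.191% in busulfan-treated wt and 0.261% in busulfan-treated dcat. Other A-kinase anchoring proteins held 0.131%, 0.0649% and 0.0657% in the same groups. The late spermatid sum stood in the same order over the 4 busulfan libraries as the member share, and its part in the member share was not tested.

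**Figure D1:**
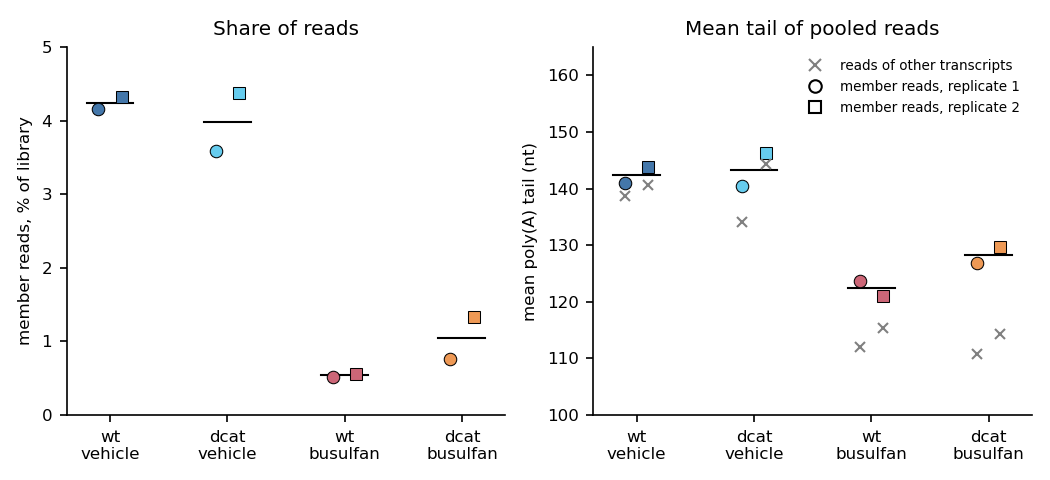
Left, member reads as a percentage of all reads of a library, by group. Right, mean poly(A) tail in nt over all member reads (coloured) and over the reads of all other transcripts (grey crosses). Circles are replicate 1, squares replicate 2, and bars the mean of the 2 libraries. Member shares lie between 3.58% and 4.38% after vehicle and between 0.521% and 1.33% after busulfan, and member tails after busulfan (121 to 129.6 nt) exceed those of other transcripts (110.7 to 115.4 nt).

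RFX factors, the main activators of ciliary genes, bind the X-box, an inverted repeat of the core letters GTTGCC, read from the other strand as GGCAAC. CREM, an activator of spermatid genes, binds the letters TGACGT, which on the other strand are read as ACGTCA. RefSeq promoters of assembly GRCm38.p6, spanning 250 bases before to 50 after the start site, were matched to 56 of the 65 member genes. Both strands were searched, and matches of both motifs were free to overlap. The RFX letters stood in 16 of 56 member promoters (28.6%), in 261 of 1811 promoters of all genes in the table (14.4%) and in 12.5% of all 32851 RefSeq promoters. The CREM letters stood in 9 of 56 (16.1%), 12.9% and 7.51%. Both orientations of the RFX letters within 20 bases of each other occurred in 3 member promoters (Tekt1, Cfap298 and Cfap90, 5.36%) and in 5 of the 1811 (0.276%), these 3 included. Either order was accepted, so this is not a count of X-boxes. By structure, the RFX letters were found in 4 of 10 promoters of microtubule inner proteins and tektins, in both of the central apparatus genes Spag6 and Spag6l, in 1 of 4 of the fibrous sheath and in 0 of 2 of the outer dense fibres. After busulfan in wt, 14 of 16 genes with the RFX letters were called lower (median log2 fold change -4.10) and 36 of 40 without (-4.02). The 150 bases before the start site are given for 4 genes with the RFX letters, with RFX and CREM letters in capitals. Cfap90 carries a close pair with GTTGCC first, and Tekt1 a wider pair with GGCAAC first. Tekt2 has both orientations far apart, and Spag6 1 copy.
Cfap90 (chr13:68597289-68597438, plus strand): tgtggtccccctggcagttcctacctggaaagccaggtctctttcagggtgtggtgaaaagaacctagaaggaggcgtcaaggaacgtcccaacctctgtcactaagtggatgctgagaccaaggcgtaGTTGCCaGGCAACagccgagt
Tekt1 (chr11:72361883-72362032, minus strand): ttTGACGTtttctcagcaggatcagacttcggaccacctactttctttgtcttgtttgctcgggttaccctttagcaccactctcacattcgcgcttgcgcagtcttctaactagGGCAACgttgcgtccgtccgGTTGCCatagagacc
Tekt2 (chr4:126325689-126325838, minus strand): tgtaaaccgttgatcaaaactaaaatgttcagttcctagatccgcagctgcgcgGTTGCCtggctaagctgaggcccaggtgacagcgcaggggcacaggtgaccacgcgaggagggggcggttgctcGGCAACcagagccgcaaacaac
Spag6 (chr2:18698872-18699021, plus strand): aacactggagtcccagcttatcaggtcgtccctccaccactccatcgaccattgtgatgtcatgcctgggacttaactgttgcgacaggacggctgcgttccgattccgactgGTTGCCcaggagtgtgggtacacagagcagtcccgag

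After busulfan in wt testes, 73 of 83 members fell, 3 rose and 7 were not called, while 38.3% of all 2783 transcripts were called lower and 35.4% higher (edgeR quasi-likelihood test, Benjamini-Hochberg adjusted p under 0.05). Vehicle groups alone had let 63 of the 83 members into the table, and 898 of all 2783 transcripts. Busulfan groups alone had let in 7 members and 1207 of all transcripts. Part of the fall in either genotype, and of its contrast with all transcripts, is thus built into the list. The median log2 fold change was -3.53 over the members, or -3.48 with 3 members without a read in busulfan-treated wt set at their bound, and 0.09 over all transcripts. The CPM of the vehicle and busulfan libraries did not overlap in 80 of 83 members, and in 88.3% of all transcripts. Members fell in each multiplexed library on its own, with 77 below 0 in library 1 and 78 in library 2. The matching counts over all transcripts were not taken.

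**Figure D2:**
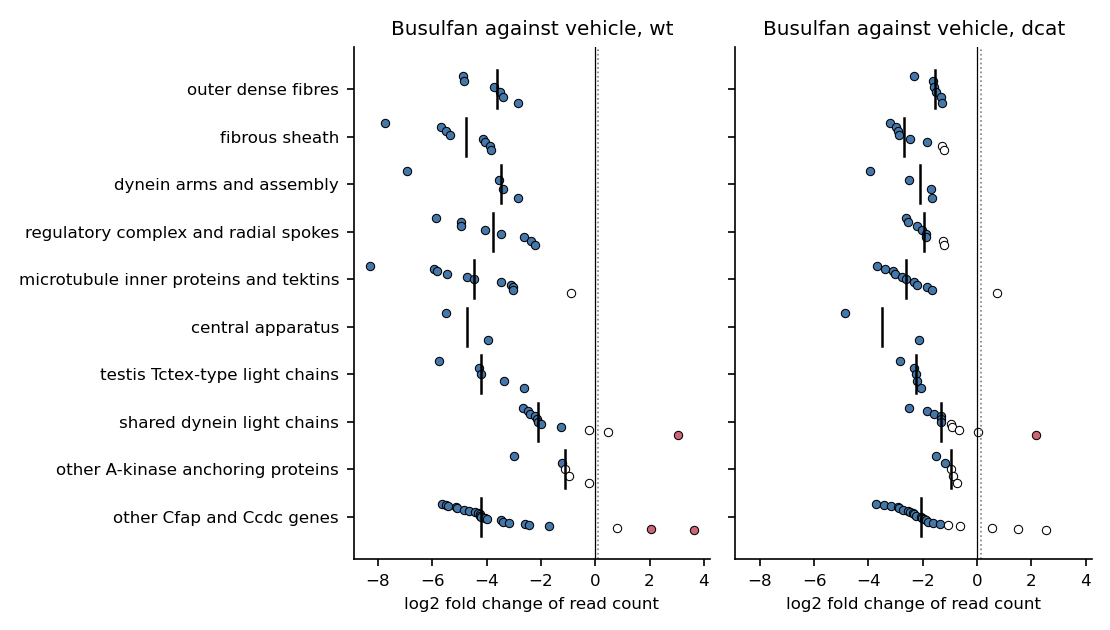
Log2 fold change of read count, busulfan against vehicle, for each of the 83 members in wt (left) and dcat (right) testes, grouped by the structure the gene belongs to. Blue points were called lower, red higher and white neither (edgeR, adjusted p under 0.05); black bars are group medians, with a wt range of -1.11 to -4.74 and a dcat range of -0.98 to -3.50, and the dotted line is the median of all transcripts.

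Outer dense fibre transcripts fell in all 6 cases, with a median of -3.61 in wt. Odf2, a main protein of the fibres that also sits at the centriole, was read as 5 transcripts that share most exons on chromosome 2, and an aligner can assign their shared reads to any of them. Their sum was 2789 and 2588 CPM in vehicle-treated wt, 1858 and 3027 in vehicle-treated dcat, 183 and 254 in busulfan-treated wt, and 529.9 and 1249.8 in busulfan-treated dcat. The busulfan-treated wt libraries were lowest, the busulfan-treated dcat libraries came next, and no busulfan library reached a vehicle library. As a gene, Odf2 fell by 3.51 on the log2 scale in wt (SE 0.40, adjusted p = 1.97e-07, edgeR) and by 1.51 in dcat (SE 0.35, adjusted p = 0.00100). Odf4, another protein of the sperm tail, had 12 and 13 reads in vehicle-treated wt, 6 and 25 in vehicle-treated dcat, 0 and 1 in busulfan-treated wt, and 2 and 4 in busulfan-treated dcat, and was called lower in both genotypes.

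Fibrous sheath transcripts fell in 8 of 8 cases in wt, with a median of -4.74 (-4.09 with 1 transcript at its bound). Ropn1l (ENSMUST00000110408, chr15:31441211-31453737), which binds the A-kinase anchoring proteins of the sheath and the radial spokes, had 3874 and 4976 CPM in vehicle-treated wt, 6039.9 and 5000.5 in vehicle-treated dcat, 248.7 and 254.2 in busulfan-treated wt, and 401 and 956 in busulfan-treated dcat. Vehicle and busulfan libraries were far apart in both genotypes, with log2 fold changes of -4.13 in wt (SE 0.40, adjusted p = 5.44e-08, edgeR) and -2.98 in dcat (SE 0.37, adjusted p = 7.08e-06). Akap4 on the X chromosome, the main scaffold of the sheath, summed over 3 transcripts to 1918 and 1845 CPM in vehicle-treated wt, 730.1 and 1781 in vehicle-treated dcat, 78.5 and 104 in busulfan-treated wt, and 257 and 641 in busulfan-treated dcat. The vehicle-treated dcat libraries differed from each other by more than the wt ones, and the highest busulfan-treated dcat library came close to the lowest vehicle-treated dcat library. Ropn1, ropporin, had a transcript (ENSMUST00000231612) with 15 and 27 reads in vehicle-treated wt and 0 in both busulfan-treated wt libraries, which made it at least 10.02-fold lower, counting 3 reads per library as the floor.

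Dynein arm, spoke and regulatory complex transcripts fell in all 12 cases in wt. Ccdc63, of the outer arm docking group, went from 10 and 14 reads to 0 and 0 in wt and was at least 5.83-fold lower. Cfap119, a coiled-coil protein of the sperm flagellum, had 600.4 and 329 CPM in vehicle-treated wt, 299 and 575 in vehicle-treated dcat, 26.2 and 47.1 in busulfan-treated wt and 64.2 and 206 in busulfan-treated dcat. Its busulfan libraries lay below its vehicle libraries in both genotypes (log2 fold change -3.53 in wt, adjusted p = 3.65e-05, and -1.71 in dcat, adjusted p = 0.00734, edgeR). Cfap298, a dynein assembly factor, had 21 and 17 reads in vehicle-treated wt and 0 and 8 in busulfan-treated wt, so that its wt change of -2.85 (SE 0.72) averages mice that lay far apart. Cfap206, a radial spoke protein, had 659 and 772 CPM in vehicle-treated wt, 531 and 823 in vehicle-treated dcat, 0 and 18.8 in busulfan-treated wt, and 80.3 and 152 in busulfan-treated dcat. Rsph1, a spoke head protein, fell less: its leading transcript had 407 and 472 CPM in vehicle-treated wt and 52.3 and 84.7 in busulfan-treated wt, and 232 and 367 against 32.1 and 217 in dcat, where the change of -1.23 missed the threshold (adjusted p = 0.0544, edgeR). Summed over its 2 transcripts, Rsph1 was called lower in both genotypes (-2.43 in wt, adjusted p = 0.000195, and -1.58 in dcat, adjusted p = 0.00782, edgeR).

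Microtubule inner proteins and tektins fell in 10 of 11 cases in wt, with a median of -4.46 (-3.95 with 1 transcript at its bound). Cfap276, an inner protein of the doublet, had 37 and 23 reads in vehicle-treated wt, 4 and 54 in vehicle-treated dcat, 0 and 0 in busulfan-treated wt, and 2 and 9 in busulfan-treated dcat, and was at least 15.5-fold lower in wt. Cfap95, of the same group, had 20 and 33 reads in vehicle-treated wt and 0 and 1 in busulfan-treated wt, a ratio of 79.6 with a counting interval of 13.7 to 3203. Cfap20, which also serves centrioles and cilia of other cells, was the exception, at 136 and 257 CPM in vehicle-treated wt and 91.6 and 122 in busulfan-treated wt (log2 fold change -0.89, adjusted p = 0.125, edgeR). It entered the table through busulfan-treated dcat alone, so that it was not called lower is partly built into the list. Both genes of the central apparatus fell. Spag6l had 349 and 515 CPM in vehicle-treated wt and 13.1 and 37.7 in busulfan-treated wt, and its relative Spag6, with 88.3% identical coding sequence, had 17 and 22 reads in vehicle-treated wt and 0 and 1 in busulfan-treated wt.

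Testis Tctex-type light chains were among the most heavily read members and fell in 5 of 5 cases. Dynlt2a1, Dynlt2a2 and Dynlt2a3 lie side by side on chromosome 17 and are near-identical copies. The coding sequences of Dynlt2a1 and Dynlt2a2, of 573 bases, were identical, and that of Dynlt2a3 differed by the single substitution C373G, counted from the first base of the start codon. The stretch from base 343 to 402 shows it, with the differing base in capitals.
Dynlt2a1: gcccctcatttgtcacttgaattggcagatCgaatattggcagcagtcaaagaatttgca
Dynlt2a2: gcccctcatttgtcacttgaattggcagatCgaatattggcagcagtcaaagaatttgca
Dynlt2a3: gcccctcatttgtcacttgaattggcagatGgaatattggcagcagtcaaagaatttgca
Reads of these copies can be exchanged between them, so their sum is the firmer value: 7360.2 and 7564 CPM in vehicle-treated wt, 5409 and 7061 in vehicle-treated dcat, 288 and 405 in busulfan-treated wt, and 562 and 1489 in busulfan-treated dcat. The sum fell in both genotypes without overlap, and every single copy was called lower in both. Dynlt1a, Dynlt1b, Dynlt1c and Dynlt1f, light chains of cytoplasmic dynein that lie together elsewhere on chromosome 17, are the same case: coding sequences of 339 bases were identical in Dynlt1a, Dynlt1c and Dynlt1f, and Dynlt1b carried C21A. Their sum was 2459.9 and 2145 CPM in vehicle-treated wt, 1361 and 2796 in vehicle-treated dcat, 458 and 508 in busulfan-treated wt, and 546 and 1108 in busulfan-treated dcat. With these clusters, chromosome 17 held 13 of the 82 members with a position (15.9%) and 151 of all 2739 placed transcripts (5.51%).

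Dynein light chains and anchoring proteins that also work outside the flagellum had smaller median changes, a difference between groups that was not tested. These groups included transcripts that entered the table through busulfan groups alone, Dynlrb1 and the Akap12 transcript ENSMUST00000215696 among them. Part of the difference is thus built into the list. The 11 transcripts of shared dynein light chains had a median of -2.09 in wt, and 8 were called lower. Dynll1, the light chain of many motor and non-motor complexes, had 1763 and 1601 CPM in vehicle-treated wt, 1195 and 1909 in vehicle-treated dcat, 523 and 857 in busulfan-treated wt, and 883 and 1119 in busulfan-treated dcat. Its fall of 1.27 on the log2 scale in wt (adjusted p = 0.00271, edgeR) was no longer called when busulfan-treated wt replicate 1 was left out (adjusted p = 0.0582), and in dcat the change of -0.66 of this leading transcript was not called (adjusted p = 0.0998). Summed over its 2 transcripts, Dynll1 was called lower in dcat as well (-0.86, adjusted p = 0.0222, edgeR). Dynlrb1, a roadblock light chain of cytoplasmic dynein, was called higher in both genotypes, with 1 and 1 reads in vehicle-treated wt, 1 and 5 in vehicle-treated dcat, 10 and 17 in busulfan-treated wt, and 11 and 17 in busulfan-treated dcat. Its log2 fold change was 3.04 in wt (SE 0.78, adjusted p = 0.00124, edgeR) and 2.19 in dcat (SE 0.60, adjusted p = 0.00363). The dcat call was lost under DESeq2 and without vehicle-treated dcat replicate 2 (adjusted p up to 0.108, edgeR). Ccdc59 rose in wt, from 0 and 1 reads to 10 and 12 (log2 fold change 3.63, adjusted p = 0.00171, edgeR), and so did Ccdc90b, a mitochondrial protein, from 3 and 1 reads to 10 and 16 (log2 fold change 2.05, adjusted p = 0.0123). DESeq2 called neither Ccdc59 nor Ccdc90b, and the Ccdc90b call was also lost without vehicle-treated wt replicate 2 and without busulfan-treated wt replicate 2 (adjusted p up to 0.145). Dynlrb1, Ccdc59 and Ccdc90b all entered the table through busulfan groups alone, where they are high, so their rise is partly built into the list. Other A-kinase anchoring proteins had a median of -1.11: Akap12, a scaffold of the plasma membrane in many cell types, summed over 4 transcripts to 794 and 1315 CPM in vehicle-treated wt, 996 and 1182 in vehicle-treated dcat, 615 and 574 in busulfan-treated wt, and 642 and 533 in busulfan-treated dcat. Akap1, the mitochondrial anchor, fell from 13 and 20 reads to 1 and 5 in wt.

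In dcat testes busulfan lowered 65 of 83 members and raised 1, with 31.4% of all transcripts called lower and 31.3% higher. The median log2 fold change of the members was -1.95, against 0.14 over all transcripts, and 73 of 83 members did not overlap between the groups, as against 79.7% of all transcripts. The count fell to 24 without vehicle-treated dcat replicate 2, the deepest library, and lay between 52 and 74 with any other library left out. The largest falls in dcat were those of Spag6, the inner dynein arm light intermediate chain Dnali1 (-3.95), Ccdc30 (-3.73) and Tekt5 (-3.67). Spag6 went from 15 and 47 reads to 0 and 2, a ratio of 30.8 with a counting interval of 8.17 to 260. Ccdc30 went from 3 and 28 reads to 1 and 1, so its fold change rests on few reads. The busulfan contrasts of both genotypes share no mouse, but they share both multiplexed libraries and the fit that estimates the spread. Every structural group had a smaller median fall in dcat than in wt, from -3.61 against -1.55 in outer dense fibres to -1.11 against -0.98 in other A-kinase anchoring proteins; the difference was tested as the interaction.

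Without busulfan, the genotype made no difference that passed the test in any member. Of 83 members, 0 were called in either direction by edgeR, 0 by DESeq2, and 0 had an unadjusted p under 0.05; of all transcripts 0% were called. The median log2 fold change of dcat against wt after vehicle was -0.06, with a range from -1.13 to 1.15. A test with 2 mice per group that calls none does not show that the genotypes were alike.

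After busulfan, 9 of 83 members were higher in dcat than in wt and 0 lower (edgeR), with 5.39% of all transcripts called higher and 0.431% lower. The median log2 fold change over the members was 1.36 (1.34 with 3 transcripts at their bound), against 0.20 over all transcripts, and 38 of 83 members had an unadjusted p under 0.05, as against 20.3% of all transcripts. In 59 members dcat exceeded wt within both multiplexed libraries, and the median was 1.14 in library 1 and 1.56 in library 2. No matching count over all transcripts was taken, so these values describe the members only. The called members came from the outer dense fibres (2 of 6), the fibrous sheath (3 of 8), the spoke and regulatory group (1 of 8), the microtubule inner proteins (1 of 11), the testis Tctex light chains (1 of 5) and other coiled-coil genes (1 of 23), and none came from the dynein arms, the shared light chains or the other anchoring proteins.

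**Figure D3:**
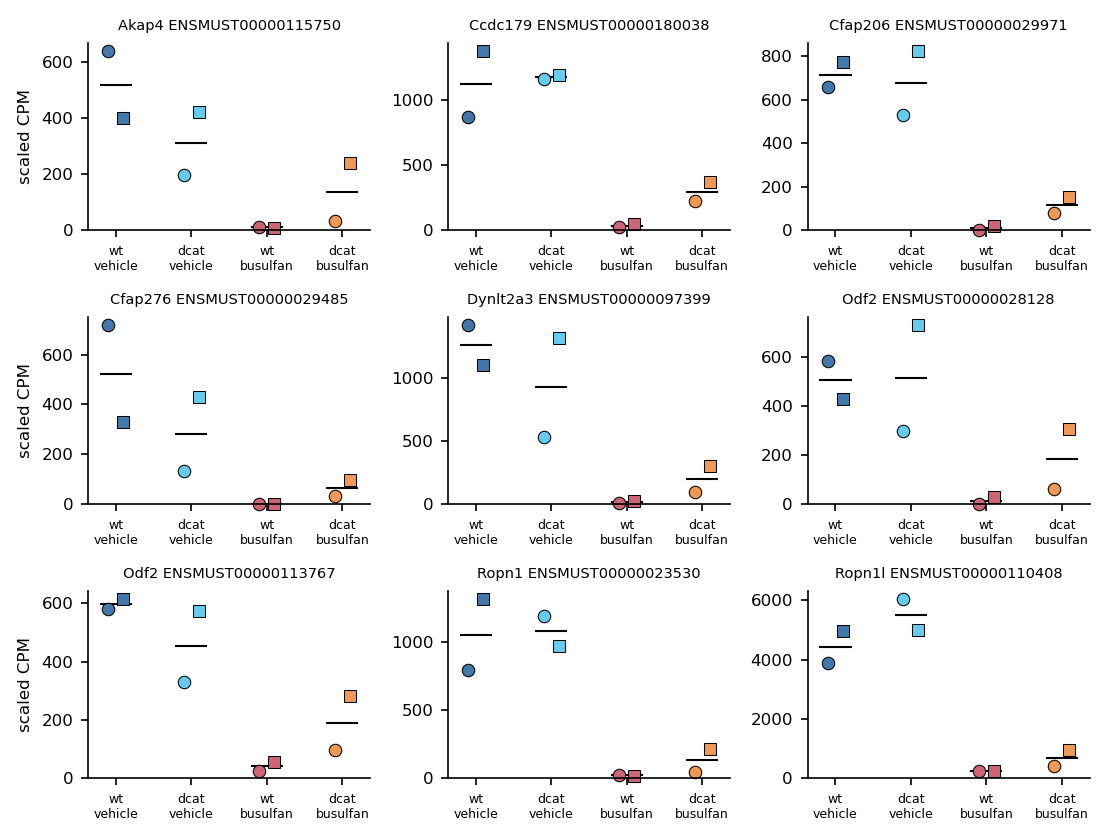
TMM-scaled CPM of the 9 transcripts called higher in dcat than in wt after busulfan, in all 4 groups. Circles are replicate 1, squares replicate 2, bars the mean of 2 libraries. In every panel both busulfan-treated dcat libraries lie above both busulfan-treated wt libraries, replicate 2 is the higher of the dcat pair, and both stay below the mean of either vehicle group.

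Ccdc179, a short testis transcript of unknown function (ENSMUST00000180038), had 872 and 1373 CPM in vehicle-treated wt, 1162 and 1190.2 in vehicle-treated dcat, 26.2 and 47.1 in busulfan-treated wt, and 225 and 369 in busulfan-treated dcat. The 4 busulfan libraries separated by genotype with a log2 fold change of 2.94 (SE 0.58, adjusted p = 0.00411, edgeR). Dynlt2a3 had 1 and 3 reads in busulfan-treated wt and 6 and 28 in busulfan-treated dcat (3.18, SE 0.76, adjusted p = 0.0174, edgeR). Reads may be exchanged between the Dynlt2a copies, and the other copies were not called as genes (Dynlt2a1 1.21, adjusted p = 0.0683, and Dynlt2a2 1.27, adjusted p = 0.260, edgeR). Ccdc179 and Dynlt2a3 were the members that DESeq2 also called. Odf2 transcripts ENSMUST00000028128 and ENSMUST00000113767 had 0 and 3 against 4 and 28 reads (3.48, adjusted p = 0.0217) and 2 and 6 against 6 and 26 (2.16, adjusted p = 0.0473, edgeR). Summed as a gene, Odf2 differed by 1.89 (SE 0.41, adjusted p = 0.00868) and Akap4 by 2.17 (SE 0.52, adjusted p = 0.0163, edgeR).

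The other called members rested on few reads in busulfan-treated wt. Akap4 transcript ENSMUST00000115750 had 1 and 1 reads in wt and 2 and 22 in dcat, a ratio of 14.2 with a counting interval of 3.53 to 124. Ropn1 transcript ENSMUST00000023530 had 2 and 2 against 3 and 20 reads (2.62, adjusted p = 0.0469, edgeR), Cfap206 0 and 2 against 5 and 14 (3.29, adjusted p = 0.0262), and Cfap276 0 and 0 against 2 and 9, which was at least 1.92-fold higher (adjusted p = 0.0473). Most of the dcat reads came from replicate 2 in each of these. Ropn1l, with the most reads, had 19 and 27 against 25 and 88 reads and the smallest change, 1.46 (SE 0.41, adjusted p = 0.0333, edgeR). Leaving out busulfan-treated dcat replicate 2 left 0 members called, as did leaving out either busulfan-treated wt library; leaving out either vehicle-treated wt library left 2, and leaving out busulfan-treated dcat replicate 1 gave 26. The late spermatid markers moved in the same direction, with 9 of 12 transcripts called higher in dcat after busulfan and the highest sum in the same replicate 2, and their part in the member calls was not tested.

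The interaction of genotype and busulfan, the test of whether the loss differed between genotypes, called 0 of 83 members by edgeR and 0 by DESeq2, with 0.323% of all transcripts called above 0 and 0% below. Of the 83 members, 31 had an unadjusted p under 0.05, as against 16.2% of all transcripts, the smallest adjusted p was 0.05003 (Ccdc179), and the median was 1.46 against 0.28 over all transcripts. With the multiplexed library as a replicate block, the number called was 8: Dynlt2a3, Ccdc179, Cfap276, Cfap206, and a pair of transcripts each of Odf2 and Akap4, all with a smaller loss in dcat. With counts summed per gene, the interaction was 2.67 for Akap4 (adjusted p = 0.0419), 2.77 for Ccdc179 (adjusted p = 0.0419) and 3.39 for Dynlt2a3 (adjusted p = 0.0471, edgeR). The shares over all transcripts given above belong to the main fit. None was taken for the block or the gene sums, so whether these calls are particular to the members was not tested.

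A further 97 flagellar genes with other names, such as Odf1, Smcp and Gapdhs (also late spermatid markers), were counted as a list, of which 43 genes with 56 transcripts were found. Of these transcripts, 53 of 56 fell in wt and 45 in dcat after busulfan, with medians of -3.940 and -2.003, and 14 were called higher in dcat than in wt after busulfan. Over all transcripts 38.3% and 31.4% were called lower in these busulfan contrasts and 5.39% higher in dcat after busulfan. The list took 35707 to 47934 CPM in the vehicle libraries, 7570 and 10656 in busulfan-treated wt, and 10816 and 16184 in busulfan-treated dcat.

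Tails of the members in wt testes without busulfan covered a wide range. In vehicle-treated wt, 72 members had at least 10 reads in both libraries, and their mean tails had a median of 148.6 nt, an interquartile range of 130.3 to 157.3 nt and extremes of 85.2 and 192.9 nt. The median over all 1475 transcripts read as deeply was 148.2 nt. Across the 72 members the tails of both mice went together (Pearson r = 0.81, Spearman rho = 0.74, a description over transcripts of the same 2 libraries), with a median absolute difference of 9.25 nt. Transcript length had a weak relation to the tail (r = 0.31, rho = 0.25 over 71 members).

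**Figure D4:**
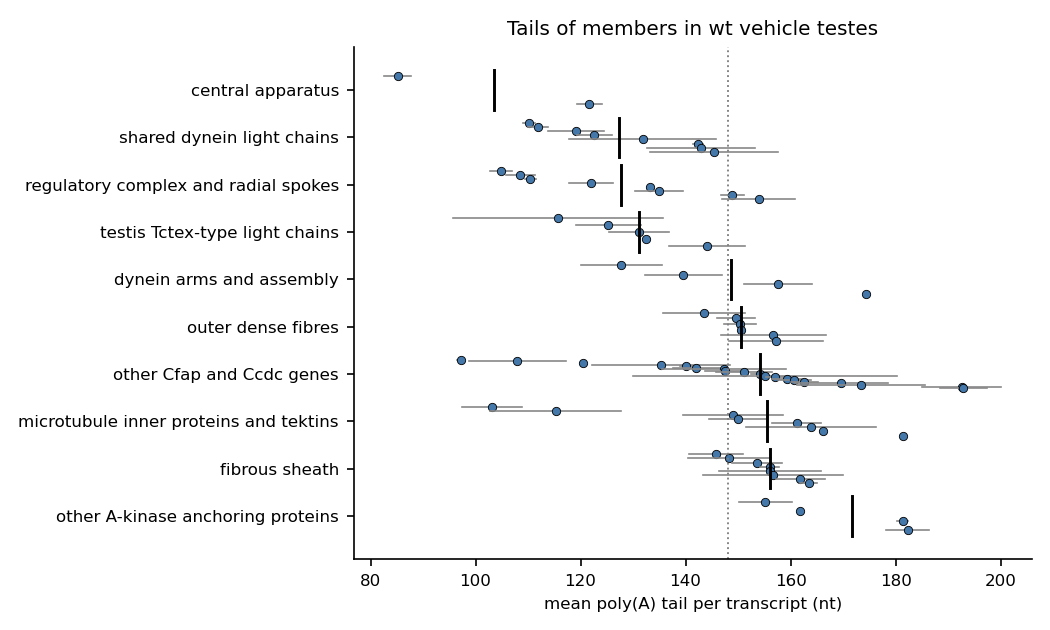
Mean poly(A) tail in nt of each of the 72 members with at least 10 reads in both vehicle-treated wt libraries, by structure. Points are means of both mice, grey lines join the mice, black bars are group medians, and the dotted line is the median of all transcripts (148.2 nt). Group medians run from 103.4 nt in the central apparatus to 171.6 nt in other A-kinase anchoring proteins.

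Tail lengths by structure are given as a description, with no test between structures. Transcripts of the accessory structures lay around the general median. They ran from 143.6 to 157.2 nt over 6 outer dense fibre transcripts and from 145.8 to 163.4 nt over 8 fibrous sheath transcripts. Of these, 5 were transcripts of Odf2, 3 of Akap4, 2 of Akap3 and 2 of Ropn1. The ranges thus cover few genes, and reads can be exchanged between transcripts of a gene. Radial spoke and regulatory transcripts (median 127.6 nt, n = 8), shared light chains (127.2 nt, n = 8) and testis Tctex light chains (131.1 nt, n = 5) lay lower. Microtubule inner proteins spread from 103.2 nt to 181.5 nt: Tekt1 had tails of 109 and 97.5 nt in the vehicle-treated wt mice, while Cfap276 had 182 and 181 nt. The shortest tails were those of Spag6, at 82.6 and 87.8 nt, and its relative Spag6l had 119 and 124 nt. Rsph1, at 103 and 107 nt, and Ccdc113, at 96.5 and 97.9 nt, were also short in both mice. The longest tails were those of Ccdc7b, at 188.4 and 197.4 nt. Members with the RFX letters in their promoter had a median tail of 138.9 nt (14 genes, 85.2 to 173.4 nt) and those without 149.5 nt (34 genes, 107.9 to 192.9 nt), ranges that overlap for most of their length.

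Member reads that remained after busulfan had shorter mean tails. Pooled over all member reads, the mean tail was 140.9 and 143.9 nt in vehicle-treated wt, 140.4 and 146.3 nt in vehicle-treated dcat, 123.7 and 121 nt in busulfan-treated wt, and 126.8 and 129.6 nt in busulfan-treated dcat. Reads of other transcripts had 134.2 to 144.3 nt after vehicle and 110.7 to 115.4 nt after busulfan, so that the drop was not confined to members. Tails of 30 to 120 nt made up 32.7% and 32.4% of member reads in vehicle-treated wt, and 51.2% (95% Wilson interval 45.9 to 56.4) and 49.1% (45.2 to 52.9) in busulfan-treated wt. In dcat the shares were 37.5% and 30.8% after vehicle, and after busulfan 47.3% (42.8 to 51.9) and 43.1% (40.5 to 45.9). Long tails of 120 to 210 nt were 56.7% and 56.9% in vehicle-treated wt, and 51.9% and 58.2% in vehicle-treated dcat. After busulfan they were 33.7% (28.9 to 38.9) and 37.3% (33.6 to 41.1) in wt, and 41.7% (37.3 to 46.3) and 49.1% (46.4 to 51.9) in dcat. Both busulfan-treated dcat libraries lay above both wt ones, but the intervals of wt replicate 2 and dcat replicate 1 overlapped. The pooled values mix a change of tails with a change in which members are read.

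**Figure D5:**
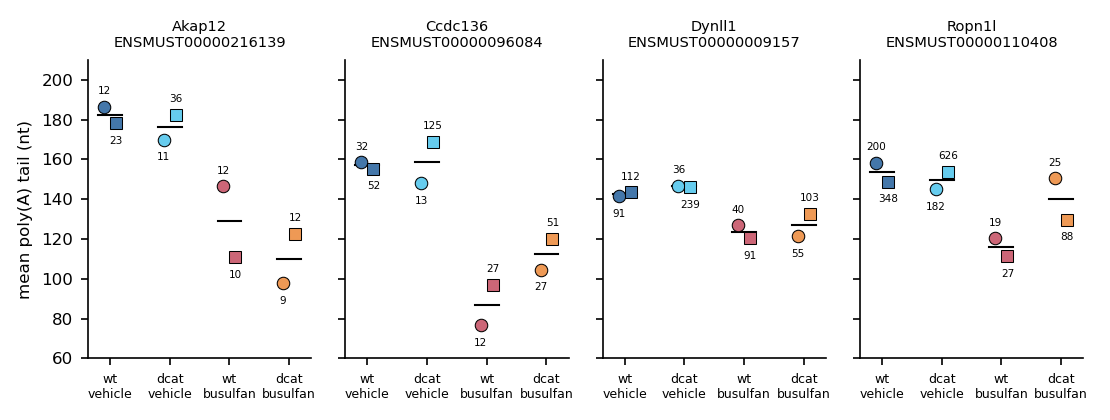
Mean poly(A) tail in nt of the 4 transcripts called shorter after busulfan in wt or dcat (limma, adjusted p under 0.05), in the 8 libraries. Circles are replicate 1, squares replicate 2, bars group means, and small numbers the reads behind each mean. Ccdc136 falls from 155 and 159 nt to 76.6 and 96.9 nt in wt, and the busulfan-treated wt tails of Ropn1l (111 and 120.3 nt) lie below all its other tails.

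Per transcript, 9 members had at least 10 reads in each wt library and could be tested. Of these, 3 were called shorter after busulfan in wt and 0 longer, with 36.1% of 527 transcripts called shorter and 0.759% longer (limma). All 9 changes were below 0, with a median of -18.7 nt against -19.9 nt over all 527 transcripts tested, about the same shift. No transcript of the outer dense fibres, dynein arms, spoke and regulatory group, microtubule inner proteins or central apparatus could be tested. None of them had 10 reads in busulfan-treated wt replicate 1, so these 9 changes do not describe the tails of those structures. Ccdc136, a coiled-coil protein of the sperm acrosome (ENSMUST00000096084, chr6:29396685-29426994), had tails of 159 and 155 nt in vehicle-treated wt, 148 and 169 nt in vehicle-treated dcat, 76.6 and 96.9 nt in busulfan-treated wt, and 104.6 and 119.99 nt in busulfan-treated dcat. Its busulfan tails lay below its vehicle tails in both genotypes, by 70.2 nt in wt (SE 11.8, adjusted p = 0.000581, limma) and 46.1 nt in dcat (SE 11.1, adjusted p = 0.0127).

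Ropn1l had tails of 158 and 149 nt in vehicle-treated wt, 145 and 154 nt in vehicle-treated dcat, 120.3 and 111 nt in busulfan-treated wt, and 151 and 129.7 nt in busulfan-treated dcat. Only the wt tails separated by treatment, with a difference of -37.7 nt (SE 8.28, adjusted p = 0.00356, limma), and the dcat difference was -9.30 nt (adjusted p = 0.368). Akap12 transcript ENSMUST00000216139 had 186 and 178 nt in vehicle-treated wt and 147 and 111 nt in busulfan-treated wt (-53.5 nt, SE 15.5, adjusted p = 0.0163, limma), from 10 to 23 reads per library. This call was lost on median tails and with libraries centred. Akap12 transcript ENSMUST00000239373 was also tested in wt and not called, with 162 and 161 nt after vehicle and 124 and 171 nt after busulfan. Dynll1 had 141 and 143 nt in vehicle-treated wt, 147 and 146 nt in vehicle-treated dcat, 127 and 121 nt in busulfan-treated wt, and 121 and 133 nt in busulfan-treated dcat. It was called in dcat (-19.5 nt, adjusted p = 0.0476) and missed the threshold in wt (-18.7 nt, adjusted p = 0.0523, limma). The dcat call was lost on log2 tails, without the eBayes trend, and with libraries centred, where the difference was 3.29 nt. The changes in the 2 genotypes were thus of similar size, and the dcat call lay at the threshold. In dcat, 2 of 7 members tested were called shorter and 0 longer, with 30.2% and 0.227% of 441 transcripts, and the median change was -10.7 nt against -17.2 nt over all. With each library centred on its own median tail, 1 member was called shorter in wt and 0 in dcat, since the shift common to all transcripts is then taken out.

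Between genotypes no member tail was called. After vehicle 0 of 27 members were called by limma, 1 with an unadjusted p under 0.05 (Spag6, 33.8 nt longer in dcat, with 82.6 and 87.8 nt in wt and 137 and 101 nt in dcat), and 0% of 720 transcripts were called. The median difference was 3.62 nt, with a range from -29.2 to 33.8 nt. After busulfan 0 of 9 members were called, with 0.253% of 1188 transcripts called longer and 0.926% shorter, and 2 had an unadjusted p under 0.05. These were Ropn1l, 24.3 nt longer in dcat (unadjusted p = 0.0348, adjusted p = 0.684, limma), and Ccdc136, 25.6 nt longer (unadjusted p = 0.0449, adjusted p = 0.687). The interaction called 0 of the 4 members tested, 1 of them with an unadjusted p under 0.05 (Ropn1l, 28.4 nt, adjusted p = 0.497, limma), with 0.295% of 339 transcripts called longer and 0.59% shorter. After busulfan 14 to 46 members had 10 or more reads in a library, so for most members a difference in tail was not detectable at this depth.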

How the data were processed

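Poly(A) RNA of 8 whole testes was sequenced directly on nanopores, as 2 multiplexed libraries that each held 1 mouse of every group. The authors basecalled the reads, aligned them to mouse GENCODE transcripts by minimap2 (the submitters' processing notes name version 2.20-r1061 and build mm10), estimated tails with Nanopolish, and deposited raw read counts per transcript and a tail length in nt for each read; no other tail estimate was used here. Tables of the authors' own DESeq2 fold changes and p-values were also deposited and were not used. Read counts and tails per transcript covered the same 621202 reads.

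Counts were tested with edgeR 4.0.16 (quasi-likelihood, TMM scaling, 4 groups in 1 fit) and mean tails with limma 3.58.1 (at least 10 reads in each library of a contrast, trended eBayes), with Benjamini-Hochberg adjustment over all transcripts tested and a threshold of 0.05. DESeq2 1.42.0 was an alternative, and other alternatives changed scaling, filters, the samples fitted, the tail summary and the replicate block, or left out each library. CPM of single transcripts and gene sums were scaled by TMM, marker sums by total reads. The fits were tested on simulated data. By the paper's methods, libraries with the same replicate number share a multiplexed library. Deviations of same-numbered libraries from their group means correlated between -0.130 and 0.246 over 2037 transcripts. Named members were the most read symbols of each structural group, the largest changes, all genotype and tail calls and all members that rose; those named for a promoter or for the shortest or longest tails were added after their values were seen. Members, lists and tests were chosen with earlier results of these data known. Coordinates come from GENCODE vM21 on GRCm38, which placed 82 of 83 members. Counting intervals cover counting error only.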

Additional observations from a re-analysis of the deposited data

How the results depend on the processing

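Counts of members called after busulfan in wt lay between 62 (counts summed per gene, so fewer features) and 78 over the alternatives, with 76 as reported, and between 69 and 77 with 1 library left out. In dcat the 66 became 24 to 74 with 1 library left out, the lowest without vehicle-treated dcat replicate 2. RLE scaling moved the median of all transcripts in wt from 0.09 to -0.03, in dcat from 0.14 to -0.08, and the member medians to -3.67 and -2.17. For dcat against wt after busulfan, the 9 called became 2 under DESeq2 and 0 to 26 with 1 library left out. The interaction, with 0 called, gave 3 under RLE scaling, 3 after filterByExpr, 3 with counts summed per gene, and 0 to 19 with 1 library left out. Paired by multiplexed library, the fits with the replicate block called 76, 65, 0 and 13 members in the count contrasts and 8 in the interaction, and 3, 2, 0, 0 and 0 members by tail. The block added Ccdc181, Cfap95, Dynlt2a1 and a further Akap4 transcript to the 9 called for dcat against wt after busulfan.

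By tail, the 3 called in wt became 1 at a minimum of 20 reads, 1 with libraries centred, and 1 to 4 with 1 library left out (1 without vehicle-treated wt replicate 1). The 2 called in dcat became 1 at 20 reads, 0 with libraries centred, 1 without the eBayes trend, 1 on log2 tails, and 0 to 2 with 1 library left out (0 without vehicle-treated dcat replicate 2). The mean tail of member reads in busulfan-treated dcat, 128.2 nt, was 130.4 nt as a mean over transcripts. The signs that turned belonged to small tail differences. With libraries centred, Dynll1 after busulfan in dcat came to 3.29 nt. For dcat against wt after busulfan, Dynll1 came to -0.389 nt and Akap12 (ENSMUST00000239373) to -1.40 nt with libraries centred, and Dynlt2a1 to -5.79 nt on median tails. With 1 library left out, these 3 ranged from -2.36 to 8.96 nt (Dynll1), from -21.0 to 25.5 nt (Akap12) and from -7.74 to 17.6 nt (Dynlt2a1). The cause of these changes was not tested. Few reads per member after busulfan (14 to 46 members with 10 or more reads in a library) limited the tail comparisons.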
